A study of Homo sapiens with 6 samples.

Results

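The genes described here make up the core of the human microRNA and RNA interference machinery: the nuclear nuclease DROSHA and its partner DGCR8, the cytoplasmic nuclease DICER1 and its partners TARBP2 and PRKRA, the Argonautes AGO1 to AGO4, and the silencing scaffold TNRC6A. They were chosen by name, as 10 genes, and each was to be read from probe sets that the array annotation ties to that gene alone. Of these, 9 had such probe sets, 30 in all, among the 19775 genes and 41091 single-gene probe sets of the array. DGCR8 had none and was not analysed here.

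RNA was taken from cultures of MDA-MB-231, a widely used line of triple-negative human breast cancer cells, which is the only line in the series. Cells of 3 samples had been given an siRNA (a small interfering RNA) that targets SDC1, which encodes the cell surface proteoglycan syndecan-1, and cells of 3 samples with a negative control siRNA. Both groups therefore carried a transfected siRNA, which itself acts through Argonaute proteins, and no untransfected cells were analysed here. How many siRNAs were used, and when after transfection RNA was taken, is not given in the sources here. The comparison asks whether transcripts of the machinery differ between silencing of SDC1 and a control siRNA.

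A microRNA starts as a hairpin in a longer nuclear transcript. DROSHA with DGCR8 cuts the hairpin out, XPO5 carries it to the cytoplasm, and DICER1 trims it to a duplex with the help of the double-stranded RNA-binding proteins TARBP2 and PRKRA. A strand of the duplex is then held by an Argonaute, which pairs with target transcripts and calls in TNRC6 proteins, deadenylases and decapping enzymes. Synthetic siRNAs enter the same path at the loading step.

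Each value is log2 expression with the 6-array median of its probe set set to 0, so values show differences between arrays and not levels of a gene. Fold changes are SDC1 siRNA minus control siRNA on the log2 scale, with the standard error (SE) of a limma fit over all genes, n = 3 arrays per group, and adjusted p by Benjamini-Hochberg over all 19775 genes with a threshold of 0.05. A coarse brightness class was read from the numeric step of the values. A gene's value is the mean of its probe sets in its brightest class. In these data from whole cultures, less RNA per cell and fewer cells that hold the RNA cannot be told apart.

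SDC1 transcript was at 1.13, 1.32 and 1.09 in the control arrays and at -1.14, -1.16 and -1.43 in the SDC1 siRNA arrays, a log2 fold change of -2.42 (SE 0.097, limma adjusted p = 2.1e-06). The mean of 27 poly-A spike-in probe sets was 0.35 to 0.60 in SDC1 siRNA replicates 1 and 2 and control replicate 1. In the other 3 arrays it was -0.41 to -0.38. These sets of arrays, which cut across the groups, are called the first and second spike-in batch here. They were read from these controls alone and not from labels, and the names give no order. Whether they were processed apart or differ only in the spike-in added was not tested. Differences between 3′ and 5′ control probe sets of ACTB and GAPDH, a sign of RNA integrity, differed between the groups by 0.04 and 0.01 (exact permutation p = 0.8 and 0.7, 2-sided, where 0.1 is the smallest possible). The 6 markers typical of the cell line were all in the brightest class, but so were 5 of 6 luminal markers, so this class did not check the label. Of the markers typical of the line, VIM fell by 0.62, CD44 by 0.68 and EGFR by 0.41 and AXL rose by 0.25. Of the luminal markers, GATA3 and KRT19 rose by 0.44 and 0.39 and EPCAM fell by 0.34. Their part in the results was not tested. None of the 8 measured leukocyte, endothelial and fibroblast markers passed, and 1 was higher at an unadjusted p under 0.05.

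Of the 9 measured genes, 5 rose after SDC1 siRNA and none fell. TARBP2, TNRC6A, PRKRA and AGO4 rose 1.27-fold to 1.48-fold, and DROSHA rose 1.15-fold. AGO1, AGO2 and DICER1 were slightly below control and AGO3 was level, and these 4 did not pass the test. Over all genes 28.1% passed, 13% higher and 15.1% lower, and in the brightest class, which holds 7 of the 9, 40.7% passed. The share among the 9 was 55.6%, with a median log2 fold change of 0.20 against 0.0045 over all genes. Of the 9, 1 gene (AGO1) was lower at an unadjusted p under 0.05, and AGO1 was also the gene called lower in a fit without variance shrinkage. By p, AGO1 ranked 6567 of all 19775 genes. For 7 of the 9 the values of both groups did not overlap, against 41.7% of all genes. That share was not computed for the brightest class alone.

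**Figure D1:**
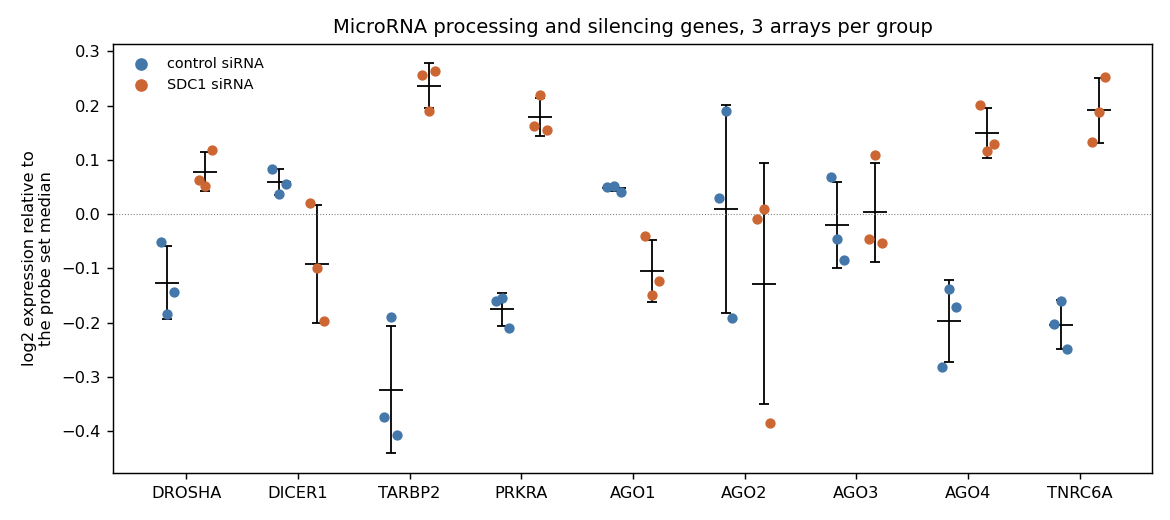
Each point is 1 array, with log2 expression relative to the probe set median on the vertical axis, and bars show the mean and SD of 3 arrays per group. The SDC1 siRNA arrays lie above all control arrays for DROSHA, TARBP2, PRKRA, AGO4 and TNRC6A, below them for DICER1 and AGO1, and overlap them for AGO2 and AGO3.

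DROSHA, the nuclease of the Microprocessor complex, was read by a single probe set. Its values were -0.05, -0.18 and -0.14 in the control arrays and 0.06, 0.05 and 0.12 in the SDC1 siRNA arrays. All SDC1 siRNA arrays lay above all control arrays, by a small margin between control replicate 1 and SDC1 siRNA replicate 2. The log2 fold change was 0.20 (SE 0.062, limma adjusted p = 0.0375), and 0.11 and 0.28 within the spike-in batches. The call was lost in 8 of 16 alternatives (adjusted p from 0.0297 to 0.118), among them leaving out any array other than control replicate 1. In a fit over all 54613 probe sets its adjusted p was 0.0820.

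DGCR8, the RNA-binding partner of DROSHA, is represented by 4 probe sets, each of which the annotation ties to DGCR8 and to MIR1306 together. The hairpin of MIR1306 lies within the DGCR8 gene in RefSeq (GRCh38.p14). The mature product is shown with its seed, bases 2 to 8, in capitals.
miR-1306-5p, in DGCR8, chr22:20086072-20086093, plus strand: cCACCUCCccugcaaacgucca

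DICER1, which cuts the hairpin to its final length, was at 0.08, 0.04 and 0.06 in the control arrays and at 0.02, -0.10 and -0.20 in the SDC1 siRNA arrays. SDC1 siRNA replicate 1 lay close to the control arrays and replicate 3 was lowest. The log2 fold change of -0.15 (SE 0.070, 95% interval -0.31 to 0.0085) did not pass the test (limma adjusted p = 0.154), and was -0.12 and -0.24 within the spike-in batches. The 6 probe sets of DICER1, 3 of them in the brightest class, had fold changes from -0.32 to 0.14. Of these, 212888_at passed on its own, at -0.32 (SE 0.090, adjusted p = 0.0383 over all probe sets). That call was lost in 6 of 13 alternatives (adjusted p from 0.0300 to 0.124), including the one without control replicate 1, without control replicate 3, and without SDC1 siRNA replicate 1 or 2. A test of whether the probe sets of a gene differ in fold change, limma's diffSplice, gave DICER1 an adjusted p of 0.375.

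TARBP2 and PRKRA encode related proteins, TRBP and PACT, that bind double-stranded RNA and DICER1. They also act on the kinase EIF2AK2 (PKR), which TRBP restrains and PACT activates. TARBP2 was at -0.37, -0.19 and -0.41 in the control arrays and at 0.26, 0.19 and 0.26 in the SDC1 siRNA arrays. Every SDC1 siRNA array was above every control array, and control replicate 2 was nearest to them. TARBP2 rose by 0.56 (SE 0.073, limma adjusted p = 0.000594), a 1.48-fold gain and the lowest p among the 9 genes, with 0.60 and 0.56 within the spike-in batches.

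PRKRA was at -0.16, -0.16 and -0.21 in the control arrays and at 0.16, 0.22 and 0.16 in the SDC1 siRNA arrays. The groups were well apart, with an SD of 0.031 in the control and 0.035 in the SDC1 siRNA arrays. PRKRA rose by 0.35 (SE 0.057, adjusted p = 0.00186), 1.28-fold, and by 0.35 and 0.34 within the batches. The rise of TARBP2 exceeded that of PRKRA by 0.21, with the groups just short of overlap, -0.035 in control replicate 2 against -0.029 in SDC1 siRNA replicate 2 (exact permutation p = 0.1, the smallest that 3 against 3 arrays allow, and adjusted p = 0.1 over 5 pairs of relatives compared).

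Both calls rest on the bright probe set of each gene. For TARBP2 the bright probe set 203677_s_at gave 0.56 and the dimmer 239389_at gave 0.02 (SE 0.12), where control arrays spread from -0.20 to 0.26. The PRKRA pair gave 0.35 for 209139_s_at and -0.13 (SE 0.14) for the dimmer 237107_at. The probe sets differed in fold change for TARBP2 (diffSplice adjusted p = 0.0146) and for PRKRA (adjusted p = 0.0429). With all probe sets averaged TARBP2 was at 0.29 (adjusted p = 0.0172) and PRKRA at 0.11 (adjusted p = 0.343), which ends the PRKRA call. Adjusted p over 16 alternatives ran from 0.000461 to 0.0179 for TARBP2 and from 0.00135 to 0.343 for PRKRA.

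EIF2AK2, the kinase that both proteins bind, rose as well, by 0.59 (SE 0.059, adjusted p = 0.000148). The genes most like TARBP2 over the 6 arrays by Pearson correlation were ADPGK, CDC42EP5 and PLPP4, at 0.998, 0.996 and 0.996, all of which rose, by 0.25, 0.35 and 0.91. With 6 arrays in 2 groups such values are a description only, since any gene that parts the groups cleanly scores high.

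Of the 4 Argonautes, AGO4 passed the test and rose. It was at -0.28, -0.14 and -0.17 in the control arrays and at 0.20, 0.12 and 0.13 in the SDC1 siRNA arrays, with all SDC1 siRNA arrays above all control arrays. The rise was 0.35 (SE 0.064, limma adjusted p = 0.00398), 1.27-fold, with 0.44 and 0.28 within the spike-in batches. The call held in 16 of 16 alternatives.

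AGO1, a general microRNA carrier, was at 0.05, 0.05 and 0.04 in the control arrays and at -0.04, -0.15 and -0.12 in the SDC1 siRNA arrays. All SDC1 siRNA arrays lay below the control arrays, but the log2 fold change of -0.15 (SE 0.058, 95% interval -0.28 to -0.019) missed the threshold (adjusted p = 0.0897, and 0.0468 to 0.245 over 16 alternatives). Within the spike-in batches it was -0.14 and -0.17. All 4 of its probe sets were below control, from -0.35 to -0.15, and 228120_at passed on its own (-0.35, SE 0.093, adjusted p = 0.0299 over all probe sets). That probe set lost its call in 6 of 13 alternatives, including the ones without control replicate 1 or 2 and without SDC1 siRNA replicate 1 or 3 (adjusted p from 0.0199 to 0.109).

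AGO2, the Argonaute best known for cutting its targets, was read by 225827_at. It was at 0.03, 0.19 and -0.19 in the control arrays and at -0.01, 0.01 and -0.39 in the SDC1 siRNA arrays. The groups overlapped, replicate 3 was lowest in both, and the SD was 0.19 and 0.22. The log2 fold change of -0.14 (SE 0.13, 95% interval -0.43 to 0.16) did not pass (adjusted p = 0.496). It was -0.03 and -0.38 within the spike-in batches, -0.0094 without SDC1 siRNA replicate 3, -0.05 without control replicate 2 and -0.24 without control replicate 3. A further 3 probe sets are tied to AGO2 and a second gene together and were not used here.

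AGO3 was at 0.07, -0.05 and -0.08 in the control arrays and at -0.05, 0.11 and -0.05 in the SDC1 siRNA arrays, with the groups intermixed. Its log2 fold change was 0.02 (SE 0.072, 95% interval -0.14 to 0.19, adjusted p = 0.853), and -0.04 and 0.01 within the spike-in batches. Its 4 probe sets, all of the middle brightness class, ran from -0.18 to 0.29 and none passed. The gene value of AGO4 over AGO1 rose by 0.50 and that of AGO4 over AGO3 by 0.32 from control to SDC1 siRNA arrays. Neither difference overlapped between groups, and the exact permutation p of 0.1 for each is the smallest possible here. AGO4 had passed by itself, so this separation partly restates that call. AGO4 was not set against AGO2.

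The rise of AGO4 was uneven across its 4 probe sets, all of the middle brightness class. Probe set 227930_at rose by 0.81 (SE 0.11, adjusted p = 0.00140 over all probe sets), from -0.26, -0.61 and -0.40 to 0.56, 0.33 and 0.26. The others were at 0.25 (adjusted p = 0.0525), 0.21 and 0.11 and did not pass. The probe sets differed in fold change (diffSplice adjusted p = 0.0172).

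AGO4, AGO1 and AGO3 are direct neighbours on chromosome 1 (in that order among protein-coding genes of the RefSeq table). The 250 bases before the start of AGO4 and AGO1 are shown because these adjacent genes had fold changes of opposite sign, and those of TARBP2 because it had the lowest p. They are from RefSeq (GRCh38.p14), with the first listed of 3 starts for TARBP2. Capitals mark matches on either strand to the GC box GGGCGG or the CCAAT box.
AGO4 promoter, chr1:35807766-35808015, plus strand: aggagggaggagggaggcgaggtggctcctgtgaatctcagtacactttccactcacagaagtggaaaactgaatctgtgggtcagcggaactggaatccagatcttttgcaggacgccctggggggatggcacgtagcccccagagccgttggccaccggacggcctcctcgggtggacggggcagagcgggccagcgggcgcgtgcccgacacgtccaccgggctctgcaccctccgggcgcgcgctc
AGO1 promoter, chr1:35882959-35883208, plus strand: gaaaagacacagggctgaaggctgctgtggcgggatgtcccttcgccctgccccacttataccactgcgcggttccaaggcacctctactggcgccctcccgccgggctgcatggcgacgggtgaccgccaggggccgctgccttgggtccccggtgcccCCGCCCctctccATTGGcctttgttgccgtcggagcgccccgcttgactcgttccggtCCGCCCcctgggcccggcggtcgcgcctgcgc
TARBP2 promoter, chr12:53500673-53500922, plus strand: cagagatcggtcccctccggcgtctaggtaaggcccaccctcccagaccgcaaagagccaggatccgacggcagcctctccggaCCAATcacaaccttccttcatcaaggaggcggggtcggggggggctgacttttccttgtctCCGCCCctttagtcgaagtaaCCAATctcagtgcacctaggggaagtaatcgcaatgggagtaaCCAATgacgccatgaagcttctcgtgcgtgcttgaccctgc
The AGO4 window held neither motif, while the AGO1 window held the GC box at 2 places and the CCAAT box at 1. The TARBP2 window held the GC box at 1 place and the CCAAT box at 3. Of all 35116 such windows, 42.6% held the GC box and 32% the CCAAT box. Of the 10 named genes, 9 had a window, and 8 of these held the GC box and 7 the CCAAT box at some listed start. These counts are per gene over all its starts and the shares are per window, so they cannot be compared. AGO2 had no entry. A match is a run of letters and not a measured binding site.

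TNRC6A, or GW182, is the scaffold that binds Argonaute and recruits the enzymes that shorten and destroy the target transcript. It was at -0.20, -0.16 and -0.25 in the control arrays and at 0.13, 0.19 and 0.25 in the SDC1 siRNA arrays. The groups were clearly apart, with an SD of 0.044 in the control and 0.060 in the SDC1 siRNA arrays. TNRC6A rose by 0.39 (SE 0.061, limma adjusted p = 0.00158), 1.31-fold, by 0.36 and 0.46 within the spike-in batches, and it kept its call in 16 of 16 alternatives.

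Its 6 probe sets covered the widest range of fold change among these genes. The largest was that of 224705_s_at, at -0.37, -0.37 and -0.36 in the control and 0.36, 0.41 and 0.56 in the SDC1 siRNA arrays, a rise of 0.81 (SE 0.077, adjusted p = 0.000182 over all probe sets). Probe sets 234734_s_at and 233836_at rose by 0.45 and 0.30 (adjusted p = 0.0130 and 0.0138), the former not without variance shrinkage (adjusted p = 0.0835). In contrast 224704_at, of the same brightness class, was at 0.01 (SE 0.070, 95% interval -0.14 to 0.17), with the groups intermixed. The probe sets of TNRC6A differed in fold change with an adjusted p of 0.000190 in diffSplice.

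The paralogs of TNRC6A did not pass the test. TNRC6B was at -0.02 (SE 0.065, adjusted p = 0.863) and TNRC6C at -0.03 (SE 0.071, adjusted p = 0.812). TNRC6A over TNRC6B rose by 0.41 and TNRC6A over TNRC6C by 0.42 from control to SDC1 siRNA arrays. The groups did not overlap (exact permutation p = 0.1 for each, the smallest possible), which partly restates the TNRC6A call. A TNRC6C probe set of the middle class, 222820_at, stood apart from the other 6 at 0.96, and is not in the gene value.

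Over the 30 probe sets, 6 rose and 2 fell, 26.7% against 19.8% of all probe sets on the array (9.7% higher and 10.1% lower). Values of both groups were fully apart in 13 of the 30, or 43.3%, against 35.7% of all probe sets. Calls were made for 6 of the 12 probe sets in the brightest class and for 2 of the 18 in the middle class. Shares by class over all probe sets of the array were not computed, so these counts have no background of their own. Among all genes, 40.7% passed in the brightest class against 28.1% in all. Both of the falls were lost without control replicate 1 or without SDC1 siRNA replicate 1, and 1 was lost when any other single array was left out. Of the 7 genes with several probe sets, 4 (AGO4, TARBP2, PRKRA and TNRC6A) had probe sets that differed in fold change, against 23.1% of 10523 genes with several. These 4 are also genes that rose, but both tests used the same probe sets. The share with differing probe sets among genes that passed was not computed.

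**Figure D2:**
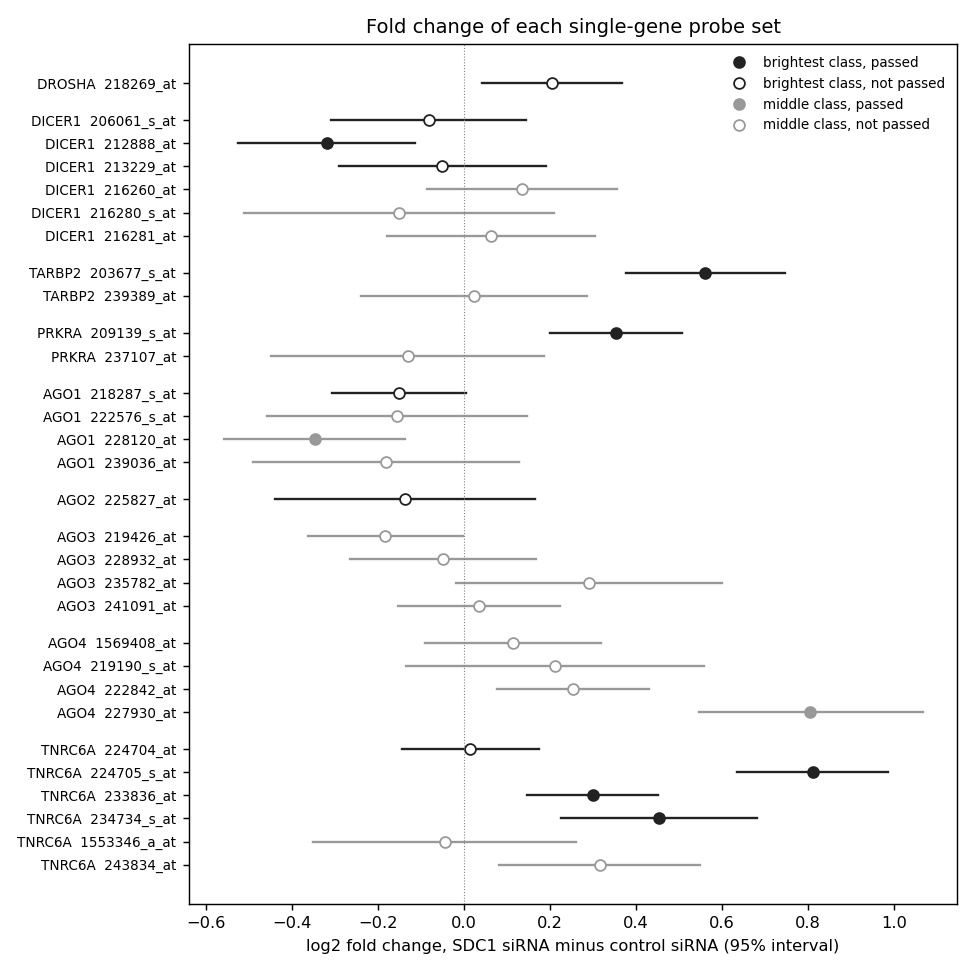
Points are log2 fold changes of single probe sets and lines their 95% intervals from the limma fit over all probe sets, with filled points for adjusted p under 0.05 and darker points for the brightest class. TNRC6A probe sets run from -0.04 to 0.81 and the AGO4 rise is led by 227930_at at 0.81, while the 4 AGO1 probe sets lie between -0.35 and -0.15.

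Genes that work with this machinery were grouped in 7 lists holding 135 genes, 124 of them measured. Of these, 24 rose and 23 fell, 37.9% against the 28.1% of all genes, and 92 of the 124 were in the brightest class, where 40.7% of genes passed. The number that fell was 15 without SDC1 siRNA replicate 2. The lists differed in how many members passed, from 10% for the PIWI clade to 60% for export and loading factors. They also differed in brightness, with 2 of 10 measured members in the brightest class for the PIWI clade and 15 of 15 for export and loading. The part of brightness in this spread was not tested.

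Partners of the Microprocessor and other nuclear factors had 3 of 13 measured members higher and none lower, with a median of 0.06. That is 23.1%, against 28.1% of all genes (13% higher and 15.1% lower). None was lower at an unadjusted p under 0.05 either. DDX17, a helicase that binds the DROSHA complex, rose by 0.79 (SE 0.056, adjusted p = 2.8e-05). With all of its probe sets not ending in _x_at averaged, DDX17 rose by 0.48. Its close relative DDX5 was at -0.02 (adjusted p = 0.849). The helicase DHX9 rose by 0.36 and the cap-binding protein NCBP1 by 0.30 (adjusted p = 0.0201 and 0.0456). The DHX9 call was lost without SDC1 siRNA replicate 1 or 3, and the NCBP1 call in 9 of 16 alternatives (adjusted p from 0.00598 to 0.162). NCBP1 was at 0.19 without SDC1 siRNA replicate 3 and at 0.65 with both of its probe sets averaged. METTL3, which methylates RNA, was at 0.11 (adjusted p = 0.243).

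Export factors and chaperones of the loading step had 6 of 15 higher and 3 lower, a median of 0.08. That is 60%, against 28.1% of all genes and 40.7% in the brightest class, which holds all 15. XPO5, which exports the hairpin, fell by 0.22 (SE 0.060, adjusted p = 0.0247), a call lost without control replicate 2 or 3 or without SDC1 siRNA replicate 1 or 2. Besides EIF2AK2, the co-chaperone FKBP5 rose by 0.58 and HSP90AA1, a heat shock protein 90 that helps Argonaute take up the duplex, by 0.49 (adjusted p = 0.000334 and 0.000535). DNAJA2, another co-chaperone, fell by 0.39 (adjusted p = 0.00225).

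Genes that tail or degrade precursors and small RNAs had none of 13 higher and 2 lower. That is 15.4%, against 28.1% of all genes (13% higher and 15.1% lower). At an unadjusted p under 0.05, common over all genes as the rank of AGO1 given above shows, none were higher and 4 lower. ERI1, an exonuclease that acts on small RNA duplexes, fell by 0.57 (SE 0.059, adjusted p = 0.000193). HENMT1, which methylates the ends of germline small RNAs, fell by 0.25 (adjusted p = 0.0216), a call lost without control replicate 2, SDC1 siRNA replicate 2 or SDC1 siRNA replicate 3. Within the spike-in batches HENMT1 was at -0.16 and -0.34. The deadenylase PARN and the ribonuclease PNPT1 were both at -0.18 and did not pass (adjusted p = 0.0553 and 0.103). LIN28A and LIN28B, which block the processing of let-7, were in the dimmest class and at -0.12 and 0.05.

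The effectors recruited by TNRC6 proteins had 7 of 30 higher and 9 lower, with a median of -0.05. That is 53.3%, against 28.1% of all genes and 40.7% in the brightest class, which holds 25 of the 30. LSM14A, a protein of RNA granules tied to decapping, rose by 1.80 (SE 0.063, adjusted p = 1.5e-06), from -0.94, -0.84 and -0.91 to 0.91, 0.83 and 0.96. This was the largest change among the genes of the 7 lists. CNOT3, a subunit of the CCR4-NOT deadenylase, rose by 0.93 and TOB1, which links that enzyme to the poly(A) tail, by 0.88 (adjusted p = 2.0e-05 and 3.7e-05). The other members that rose, named after their values were seen, were at 0.40 (TOB2), 0.34 (GIGYF2), 0.29 (CNOT7) and 0.20 (CNOT6). Their adjusted p ran from 0.0037 to 0.043. DCP1A, a cofactor of decapping, fell by 1.14 (SE 0.060, adjusted p = 6.1e-06), from 0.63, 0.52 and 0.57 to -0.59, -0.59 and -0.52. The other 8 members that fell, named after their values were seen, were at -0.59 (PAN2), -0.37 (EDC3), -0.35 (PATL1), -0.33 (XRN1), -0.32 (DCP1B), -0.24 (CNOT2 and DCP2) and -0.21 (CNOT10), with adjusted p between 0.000357 and 0.0289. Members tied to decapping that did not pass were EDC4 at -0.09, EIF4ENIF1 at -0.07, LSM1 at -0.10 and DDX6 at 0.09 (adjusted p = 0.369, 0.415, 0.245 and 0.423).

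Proteins that bind or modify Argonaute had 2 of 21 higher and 7 lower, a median of -0.13. That is 42.9%, against 28.1% of all genes and 40.7% in the brightest class, which holds 15 of the 21. CSNK1A1, a kinase that phosphorylates AGO2, fell by 0.80 (SE 0.068, adjusted p = 6.9e-05). That is the mean of bright probe sets, leaving out any ending in _x_at, that ranged from -1.56 to -0.34. With all probe sets not ending in _x_at averaged, CSNK1A1 fell by 0.46. WTIP, a LIM domain protein, fell by 0.58, EGFR, a receptor kinase that can phosphorylate AGO2, by 0.41, and SND1, a nuclease found with Argonaute, by 0.31 (adjusted p = 0.000927, 0.00158 and 0.00540). The bright probe sets of EGFR were at -0.81, -0.22 and -0.20. With all of its probe sets not ending in _x_at averaged, EGFR fell by 0.26.

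The PIWI clade and its germline partners, which belong to another small RNA path, had none of 10 higher and 1 lower. That is 10%, against 28.1% of all genes. At an unadjusted p under 0.05, again common over all genes, none were higher and 2 lower. The gene that fell was PIWIL2, by 0.34 (adjusted p = 0.0109), a call lost in 3 of 16 alternatives (adjusted p from 0.00741 to 0.0778), among them the mean over every probe set of the gene, -0.25. Within the spike-in batches it was -0.22 and -0.45. PIWIL1 was at 0.02 and PIWIL4 at -0.24 (adjusted p = 0.904 and 0.0816), and PIWIL3 was not measured by a probe set of its own. MOV10L1 and ASZ1 were at 0.17 and -0.16 (adjusted p = 0.198 and 0.146).

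**Figure D3:**
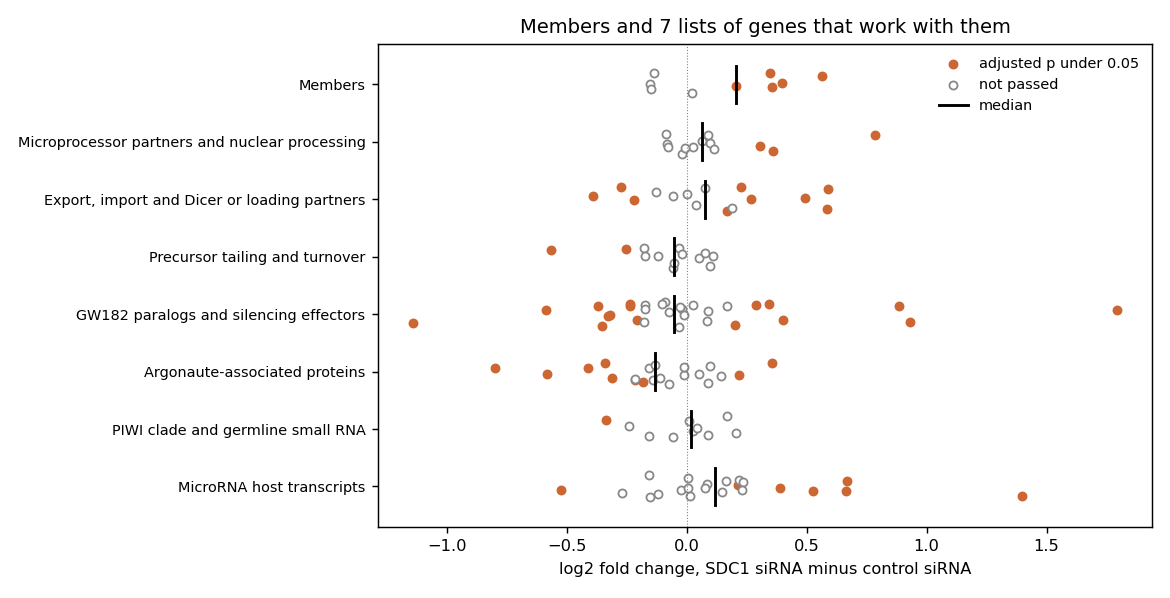
Each point is a gene, with its log2 fold change on the horizontal axis. Filled points passed at adjusted p under 0.05 and black bars are medians, 0.20 for the 9 members and between -0.13 and 0.12 for the 7 lists, whose members lie on both sides of 0.

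Small RNAs themselves were not read here, but transcripts that carry microRNA hairpins were. Of 22 measured host transcripts 6 rose and 1 fell, with a median of 0.12. That is 31.8%, close to the 28.1% of all genes. PANK3, a pantothenate kinase whose gene holds MIR103A1, rose by 1.40 (SE 0.067, adjusted p = 4.2e-06), from -0.78, -0.65 and -0.81 to 0.68, 0.69 and 0.59. PANK2, which holds MIR103A2, fell by 0.52 (SE 0.057, adjusted p = 0.000251), though with all probe sets averaged it was at -0.13 (adjusted p = 0.231, the highest over 16 alternatives, where the lowest was 0.000179). PANK1, which holds MIR107 and is named after its value was seen, was at 0.08 (adjusted p = 0.426). The microRNAs of this family are known for targeting DICER1, whose own value is given above. Host transcripts can be spliced and kept without a matching change in the mature microRNA, which these arrays do not show.

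MIR210HG, the host of the hypoxia-induced miR-210, rose by 0.67 (SE 0.079, adjusted p = 0.000370) and CTDSPL, host of MIR26A1, by 0.66 (adjusted p = 0.000683). EVL, VMP1 and RNF130, which hold MIR342, MIR21 and MIR340, rose by 0.53, 0.39 and 0.21 (adjusted p = 0.00142, 0.0305 and 0.0377). MIR17HG, the primary transcript of the miR-17 cluster, was at -0.16 (adjusted p = 0.236). These 4 genes are named after their values were seen.

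The mature products of the hosts that rose, and of PANK1, are shown to make plain which seeds those transcripts carry. They are from RefSeq (GRCh38.p14), 1 arm each, with the seed (bases 2 to 8) in capitals.
miR-103a-3p, in PANK3, chr5:168560904-168560926, minus strand: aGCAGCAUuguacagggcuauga
miR-107, in PANK1, chr10:89592756-89592778, minus strand: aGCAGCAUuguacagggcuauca
miR-210-3p, in MIR210HG, chr11:568112-568133, minus strand: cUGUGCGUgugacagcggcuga
miR-26a-5p, in CTDSPL, chr3:37969413-37969434, plus strand: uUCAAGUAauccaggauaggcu
miR-342-3p, in EVL, chr14:100109715-100109737, plus strand: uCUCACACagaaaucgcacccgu
miR-21-5p, in VMP1, chr17:59841273-59841294, plus strand: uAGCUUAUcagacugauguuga
miR-340-5p, in RNF130, chr5:180015361-180015382, minus strand: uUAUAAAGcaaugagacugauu
The product of MIR103A2, in PANK2, has the same letters as that of MIR103A1. miR-103a-3p and miR-107 share the seed GCAGCAU and differ in 1 of 23 bases, G22C, counted from the 5′ end with the base of miR-103a-3p first. The other hosts shown carry seeds that differ from it and from each other.

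**Figure D4:**
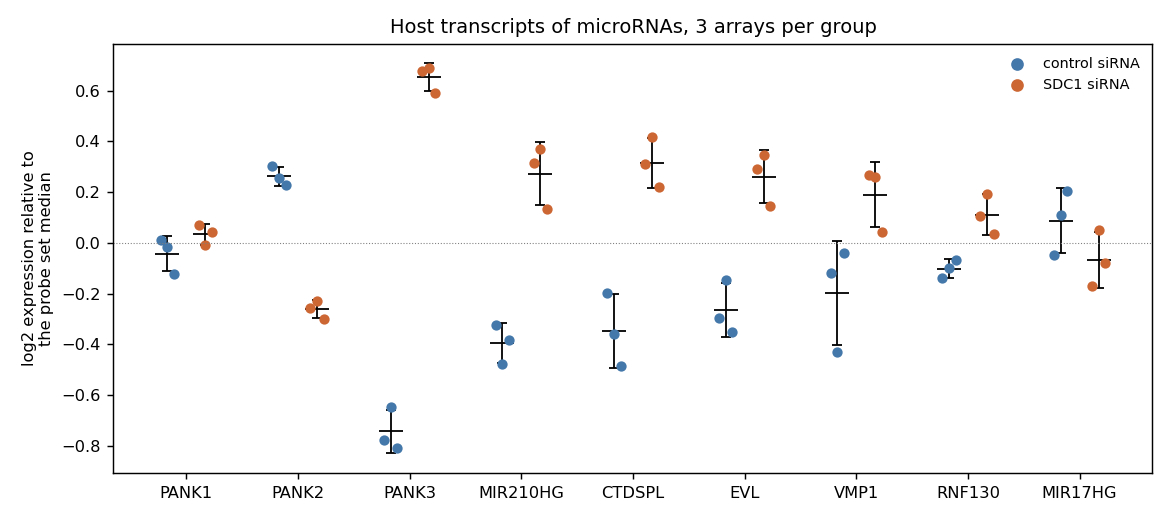
Points are single arrays, with log2 expression relative to the probe set median on the vertical axis and the mean and SD of 3 arrays per group as bars. PANK3 parts the groups most widely, from a control mean of -0.74 to 0.65, PANK2 lies the other way, and PANK1 and MIR17HG overlap.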

How the data were processed

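Biotin-labelled cRNA from 3.6 µg of total RNA per sample was hybridised to 6 Affymetrix arrays, per the labels' protocols. The deposited values are log2 expression values made with RMA, per the submitters' processing notes, with no version given. Each probe set had a median within 1e-06 of 0 over the arrays, so the deposited log2 values are centred, which was read from the values. Genes were assigned by GEO's annotation of the platform (41097 with 1 gene, 1801 with several, 11777 with none), and 41043 of the single-gene ones had an identifier in RefSeq GRCh38.p14. The 62 control probe sets stayed out of the tests.

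The numeric step of the values at or above the median put probe sets in 3 brightness classes (log2 levels of 2 to 4, 4 to 8 and 8 to 16, holding 11156, 26180 and 17339). Values printed to 3 digits were skipped here, which moved 735 probe sets relative to keeping them. Centred values allow no detection call. A gene's value is the mean of its probe sets in its brightest class, with those ending in _x_at used only where there is no other.

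limma 3.58.1 in R 4.3.3 (lmFit, eBayes, 2-sided, no covariates) was fitted over 19775 genes and over 54613 probe sets, and diffSplice, added after seeing the data, over 10523 genes. The fit was tested on simulated data. The median SE of a gene was 0.075, and the number of arrays limits the precision. The series design calls the replicates independent, without saying what they are, so p-values measure the spread between these samples. No 2 arrays held identical values.

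The members and the 7 gene lists were chosen with earlier results of these data known. Each of the 5 pairs of relatives set a gene that rose against a relative that rose less or did not pass. How often such pairs separate over all genes was not computed. Besides the members and SDC1, genes named are the 4 of lowest p in each list, PIWIL1 to PIWIL4, TNRC6B, TNRC6C, XPO5, EIF2AK2 and the 3 genes most like the member of lowest p. DDX5, LIN28A, LIN28B, EDC4, EIF4ENIF1, LSM1 and DDX6 were named outside this rule, after their values were seen. So were the genes marked that way where they are given.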

Additional observations from a re-analysis of the deposited data

How the results depend on the processing

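Results were recomputed without each array in turn, with a replicate block, blocked on the spike-in batch, with 3 other ways to summarise probe sets, without the dimmest class, with 2 other normalizations, with a robust prior and without variance shrinkage. The summary that keeps values printed to 3 digits was added after seeing the data. Member genes that rose numbered 4 or 5 throughout. Member genes that fell were 0, except for 1 without variance shrinkage. Member probe sets that fell were 2, and 0 when blocked on the spike-in batch, 0 without variance shrinkage and between 0 and 1 when an array was left out. List genes that fell were 23, and between 15 and 19 when an array was left out. With the replicate block 4 member genes rose, as DROSHA was lost (adjusted p = 0.0574). The correlations of same-numbered arrays' deviations were 0.014, 0.082 and 0.098. Control replicates 2 and 3 correlated best with the SDC1 siRNA array of their own number, and control replicate 1 with SDC1 siRNA replicate 2 (0.040). Such weak values from 3 arrays per group cannot decide whether same-numbered arrays were paired. Of SDC1, the members and the list genes named by rule, 8 lost and 4 gained a call under at least 1 alternative. So did 3 and 4 of the members' probe sets, and no called value reversed. Other genes named, among them EVL, VMP1, RNF130 and CNOT10, were not followed singly through the alternatives. The causes were not tested.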
